A study of Mus musculus with 12 samples.

Results

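Between E11.5 and E12.5 the mouse embryonic heart thickens its compact wall, remodels the cushions that become valves and begins to receive blood cells made by the fetal liver. The change over this day was measured by RNA-seq of whole hearts in 6 of the 12 libraries of the series, 3 from E11.5 control hearts and 3 from E12.5 control hearts, assigned to the stages by their labels. The control hearts were *Mesp1Cre*;*Hira*+/fl on the CD1 strain at both stages. They therefore carried the *Mesp1Cre* allele and 1 conditional (floxed) allele of *Hira*, which encodes a histone H3.3 chaperone. *Mesp1Cre* acts in the early mesoderm that gives rise to most of the heart, so that the control hearts were heterozygous for *Hira* in that lineage and were not wild type. The other 6 libraries came from *Mesp1Cre*;*Hira*-/fl mutant hearts at the same stages and were used only for comparison. The labels number the samples of a group from 1 to 3 but do not say whether they came from separate embryos, litters or pools, so p-values measure only the spread between these samples.

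The heart at these stages holds cardiomyocytes, endocardium and vessel endothelium, cushion mesenchyme, an epicardial sheet and the blood within its chambers. Cardiomyocytes raise the channels and enzymes of a working muscle as they mature. Red cells pass from the primitive lineage, which comes from the yolk sac and expresses embryonic globins, to the definitive lineage, which expresses adult globins. In RNA from a whole organ, fewer cells of a type and less RNA per cell cannot be told apart.

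Each control library held 14862472 to 17483982 reads counted over genes. Levels are given as CPM, the usual library-scaled count, adjusted between libraries by the trimmed mean of M values (TMM), and the values of a stage are listed in the order of its libraries 1, 2 and 3. Sums over a list take in all its genes found, tested or not, and are scaled by library totals without the TMM adjustment. The tissue matched its label in its sarcomere genes. The 27 sarcomere genes found summed to 39312 to 41831 CPM at E11.5 and to 42178 to 42770 CPM at E12.5. *Myod1* of skeletal muscle reached at most 0.225 CPM, *Nkx2-1* of lung and thyroid at most 0.322 CPM and *Alb* of liver at most 0.901 CPM in any library. Other markers were higher in E11.5 library 1. *Afp*, also of liver, had 20.9, 0.129 and 0.422 CPM at E11.5 and 2.70 to 3.32 CPM at E12.5. *Epcam*, of foregut and lung epithelium, had 9.04, 1.61 and 2.32 CPM at E11.5 and 0.186 to 1.65 CPM at E12.5. Of the whole marker lists, 12 of 18 liver, 11 of 18 skeletal muscle and 10 of 20 foregut and lung genes lay below 1 CPM in every control library. The liver list summed to 45.3 to 64.1 CPM at E11.5 and 40.2 to 47.7 CPM at E12.5, the skeletal muscle list to 85.96 to 161 and 75.4 to 126 CPM, and the foregut and lung list to 283 to 348 and 196 to 227 CPM. Their members with the highest single values were *Trf* (up to 44.9 CPM), *Tnni2* (up to 102 CPM) and *Id2* (up to 261 CPM), and the part of such cells in the results was not tested. Several features of the libraries touch the results below. The stages differed in sex, since 4 Y-linked genes had 3762 to 4766 counts in all 3 E11.5 libraries, 5 and 3 counts in E12.5 libraries 1 and 2, and 5318 counts in E12.5 library 3. E11.5 library 1 stood apart in epithelial genes, with *Cdh1* (E-cadherin) at 11.2, 0.0644 and 0.914 CPM at E11.5 and at most 0.124 CPM at E12.5, and *Gabrp* at 25.7, 0.258 and 1.48 CPM at E11.5 and at most 0.282 CPM at E12.5. Reads were counted without a stated use of strand, and 12 of the 134 genes considered for naming share over 20% of their exonic bases with another gene.

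Across the 12252 genes tested, 349 genes (2.85%) rose and 298 genes (2.43%) fell from E11.5 to E12.5, called where edgeR's quasi-likelihood test gave an adjusted p of 0.05 or lower and the change was 1.5-fold or larger. Without the fold threshold 1402 genes passed, and 4017 genes had an unadjusted p under 0.05. In 643 of these 647 genes the 3 libraries of one stage all lay above the 3 of the other. Such a separation was common, since 18.9% of the tested genes were higher at E12.5 without overlap and 18.6% were lower. Libraries of a stage were not alike in how far they had moved. Among the 349 rises, E11.5 library 2 was the nearest of its stage to E12.5 in 208 genes (59.6%) and E12.5 library 3 the nearest of its stage to E11.5 in 226 genes (64.8%). The number of calls depended on single libraries, with 44 genes called without E12.5 library 1, 108 without E12.5 library 2, 185 without E11.5 library 3, 263 without E11.5 library 1, 700 without E12.5 library 3 and 1407 without E11.5 library 2. With sex as a covariate, where the stage change rests on E12.5 library 3 as the only male heart of its stage, 19 genes were called, and with the 4 male hearts alone 18. All 647 genes kept the sign of their change in these fits wherever they were tested. The lack of overlap between the stages in 643 of them largely fixed this outcome in advance.

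The change followed gene length, with higher values in longer genes. Over all tested genes, the log2 fold change and gene length had a Spearman rho of 0.485, as a description across genes that share 6 libraries. Of 10 groups of genes by length, the shortest (292 to 1165 bases) had a median log2 fold change of -0.35, with 7 rises and 136 falls, and the longest (6297 bases and over) a median of 0.27, with 110 rises and 4 falls. Genes that rose had a median length of 4731 bases and genes that fell 1369 bases, against 2872 bases for all genes tested. The slope of log2 CPM per doubling of gene length was -0.103, -0.003 and -0.156 in the E11.5 libraries and 0.146, 0.085 and 0.031 in the E12.5 libraries. The slopes did not overlap between stages, and their difference was 0.17 (exact two-sided permutation test, p = 0.1, the smallest p that 3 against 3 allows). With a length offset fitted in each library, rho was -0.016 and 130 genes (1.06%) rose and 167 genes (1.36%) fell, of which 122 rises and 122 falls were among the calls without the offset. Results are therefore given below with and without this offset. Gene groups below are lists of known genes, counted over the members that passed a filter on low values (1091 of 1314 list entries). Whether the length trend came from the hearts or from the RNA and libraries was not tested.

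**Figure D1:**
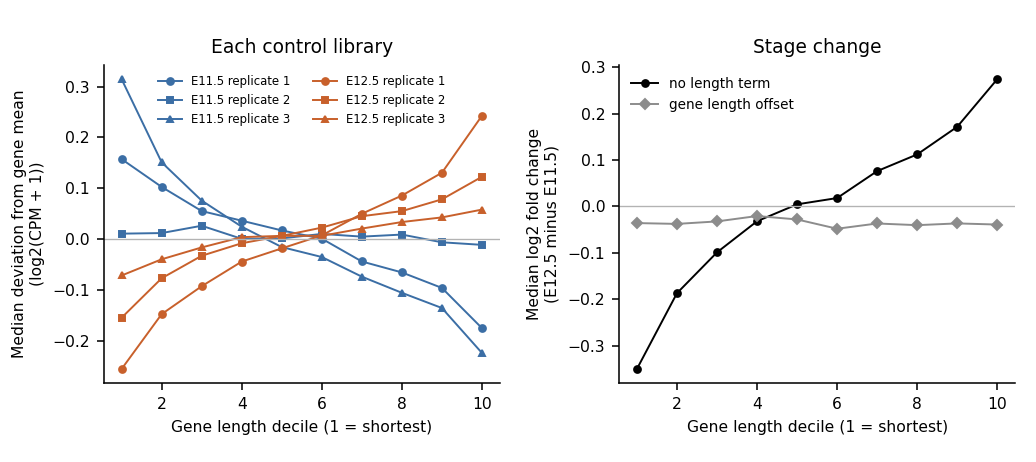
Genes in 10 groups of rising length (x axis): the left panel plots the median deviation of log2(CPM + 1) from the gene's mean for each control library, and the right panel the median log2 fold change without a length term and with the length offset. The E12.5 lines climb with length, those of E11.5 libraries 1 and 3 descend and that of E11.5 library 2 is nearly flat, while the medians on the right run from -0.35 in the shortest genes to 0.27 in the longest without the offset.

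None of the 26 tested sarcomere genes was called with or without the length offset. Without it, 2.85% of all tested genes rose and 2.43% fell. Several calcium and ion channel genes rose. The sarcomere list had a median gene length of 1411.5 bases and the calcium list 4255 bases, so the lists differ along the length trend. The sarcomere genes had a median log2 fold change of -0.00, against 0.01 over all genes tested. With the length offset the medians were 0.11 and -0.04. *Tnnt2*, cardiac troponin T, had 3019, 2729 and 3204 CPM at E11.5 and 3436, 3446 and 3298 CPM at E12.5 (log2 0.19, SE 0.10, edgeR adjusted p = 0.217). With the length offset its log2 change was 0.39 (edgeR adjusted p = 0.0296), still under the 1.5-fold threshold. *Myh6*, the myosin heavy chain of atrial and adult muscle, stood at 1199, 2053 and 1047 CPM at E11.5 and at 1937, 1944 and 2648 CPM at E12.5 (log2 fold change 0.60, edgeR adjusted p = 0.101), with E11.5 library 2 inside the E12.5 range. *Myh7*, the fetal ventricular myosin, had 4416, 5073 and 4608 CPM at E11.5 and 7420.1, 6729 and 5292 CPM at E12.5, and at 0.46 on the log2 scale it stayed under the 1.5-fold threshold. The stages did not overlap for *Myh7*. Among the 5 tested genes of the skeletal muscle list, *Mylpf*, a fast skeletal myosin light chain, fell from 23.6, 31.4 and 37.9 CPM to 8.57, 9.74 and 18.2 CPM (log2 -1.35, SE 0.27, edgeR adjusted p = 0.0216). That call held with the length offset and was lost without E11.5 library 3, E12.5 library 1 or E12.5 library 2 (edgeR adjusted p = 0.0633, 0.109 and 0.093), and with sex as a covariate (-0.77, edgeR adjusted p = 0.435).

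Of 31 genes for calcium handling and excitation, 7 rose and none fell, with a median of 0.45 (0.24 with the length offset, which kept 3 of the 7). *Cacna1c*, the main subunit of the cardiac L-type calcium channel, rose from 75.9, 91.3 and 57.9 CPM to 193, 143 and 120.3 CPM, a log2 fold change of 1.02 (SE 0.19, edgeR adjusted p = 0.0192). *Cacna1d*, the L-type subunit prominent in pacemaker cells, rose from 14.3, 22.5 and 13.01 CPM to 41.7, 33.7 and 26.9 CPM. In both channels E11.5 library 2 was the highest of its stage, and no E11.5 value reached an E12.5 value. *Casq2*, the calcium store protein of the sarcoplasmic reticulum, rose by 0.95 on the log2 scale and was the remaining gene called with the offset. *Ryr2*, the calcium release channel, stood at 280.1, 409 and 279 CPM at E11.5 and 678, 487 and 474 CPM at E12.5. Its log2 fold change was 0.76 (SE 0.18, edgeR adjusted p = 0.0308) and 0.27 with the offset, where it was no longer called. *Kcnd3*, *Chrm2* and *Gja5* rose by 0.94, 1.36 and 0.59 without the offset and were not called with it. The number of rises was 0 without E12.5 library 1 or 2, 1 without E11.5 library 3, 2 without E11.5 library 1 and 10 without E11.5 library 2, and with sex as a covariate none of the 31 genes was called, at a median of 0.34.

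Among genes of energy use, a creatine kinase and several fatty acid genes rose and glucose transporters fell. *Ckm*, the muscle creatine kinase (chromosome 7, 19411094 to 19421583, plus strand, GRCm38), had 17.5, 14.6 and 23.1 CPM at E11.5 and 63.6, 68.8 and 68.1 CPM at E12.5. The E12.5 values lay close together and all above E11.5, a 3.64-fold rise (log2 1.87, SE 0.15, edgeR adjusted p = 0.000925), and the call held in all 25 alternative fits. Of 35 genes of fatty acid oxidation and uptake, 6 rose and none fell (median 0.16, with 3 of the 6 kept by the length offset). *Cd36*, a fatty acid transporter, rose from 56.7, 69.5 and 68.2 CPM to 122, 108 and 116 CPM (log2 0.83, SE 0.11, edgeR adjusted p = 0.00501). *Ppara*, a nuclear receptor that drives fatty acid oxidation genes, rose from 2.82, 2.19 and 1.69 CPM to 6.27, 6.98 and 4.52 CPM. *Fabp4*, a fatty acid binding protein of endothelium, rose from 4.32, 1.74 and 4.501 CPM to 8.84, 22.8 and 10.6 CPM, with E12.5 library 2 well above the other two. *Ppargc1a*, *Pdk4* and *Cpt1a* rose by 0.81, 0.60 and 0.59 on the log2 scale and lost their calls with the offset. Among 31 glycolysis and hypoxia genes, the glucose transporters *Slc2a1* and *Slc2a3* fell and no gene rose. *Slc2a1* stood at 525, 607 and 539.7 CPM at E11.5 and at 349, 339 and 354 CPM at E12.5 (log2 fold change -0.68, SE 0.09, edgeR adjusted p = 0.00758), without overlap. Of the fatty acid genes 1 was called without E12.5 library 1, 2 without E12.5 library 2, 2 without E11.5 library 3 and 3 without E11.5 library 1, and none with sex as a covariate.

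Chamber and conduction genes did not move as 1 group. Of 26 cardiac transcription factors 3 rose and none fell, namely *Prox1*, *Mef2a* and *Mef2d*, at a list median of 0.10, and the length offset kept *Prox1* and *Mef2d*. In 25 alternative fits *Prox1* stayed past the thresholds in 20, *Mef2a* in 13 and *Mef2d* in 15. *Prox1*, a homeobox factor of muscle and lymphatic endothelium, rose from 15.0, 24.4 and 14.8 CPM to 49.3, 40.0 and 41.7 CPM (log2 1.27, SE 0.19, edgeR adjusted p = 0.00881). *Nkx2-5*, an early cardiac homeobox factor, had 96.9, 82.7 and 74.5 CPM at E11.5 and 76.8, 98.6 and 100.1 CPM at E12.5, and the stages overlapped. *Shox2*, which sets the pacemaker programme of the sinus venosus, rose from 0.720, 0.580 and 0.914 CPM to 3.03, 2.76 and 9.91 CPM (log2 2.82, SE 0.54, edgeR adjusted p = 0.0208). E12.5 library 3 held over 3 times the *Shox2* level of the other two, and without it the change was 1.97 on the log2 scale (edgeR adjusted p = 0.0219). *Bmp4* and *Rspo3*, secreted signals, fell by 0.67 and 0.77 on the log2 scale, and both calls held with the length offset. Of 18 trabecular and chamber genes, *Cav1*, *Bmp10* and *Gja5* rose and *Nppb* fell. In the 25 alternative fits *Cav1* stayed past the thresholds in 18, *Bmp10* in 14, *Gja5* in 11 and *Nppb* in 19. *Nppb*, the B-type natriuretic peptide, fell from 263, 217 and 290.0 CPM to 87.5, 115 and 152 CPM (log2 -1.12, SE 0.18, edgeR adjusted p = 0.0121). Its neighbour *Nppa* stood at 1445, 989.5 and 1343 CPM at E11.5 and at 1197, 1025 and 1139 CPM at E12.5, where the stages overlapped. *Nppa* shares 61.5% of its exonic bases with another gene, and its counts are uncertain to that extent. *Bmp10*, a trabecular growth factor, had 7.60, 14.2 and 7.38 CPM at E11.5 and 36.6, 21.6 and 14.7 CPM at E12.5, a narrow separation, and was called without the offset only.

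Many epicardial genes fell. Of 21 epicardial and mesothelial genes, 9 fell and 1 rose, with a median log2 fold change of -0.67 (-0.74 with the length offset, where 9 fell and none rose). *Aldh1a1*, a retinaldehyde dehydrogenase (chromosome 19, 20601961 to 20643462), stood at 33.6, 54.5 and 51.6 CPM at E11.5 and at 12.7, 9.85 and 13.5 CPM at E12.5. That is a 3.88-fold fall (log2 -1.96, SE 0.19, edgeR adjusted p = 0.00198). *Krt8*, a keratin of simple epithelia, fell from 62.4, 46.0 and 55.3 CPM to 18.1, 13.5 and 21.2 CPM (log2 -1.63, SE 0.17, edgeR adjusted p = 0.00212). Its partner *Krt18* fell from 59.1, 49.4 and 71.7 CPM to 23.9, 22.3 and 35.7 CPM, and *Krt7* from 52.7, 55.5 and 77.6 CPM to 27.7, 30.2 and 36.6 CPM. The stages did not overlap for any of these 4 genes. *Wt1*, the zinc finger factor that marks epicardium, fell from 59.4, 72.4 and 78.7 CPM to 35.7, 43.1 and 53.7 CPM (log2 -0.67, SE 0.16, edgeR adjusted p = 0.0307). *Tcf21*, a factor of epicardium-derived fibroblast precursors, fell from 49.97, 59.3 and 76.0 CPM to 30.1, 31.7 and 43.8 CPM and lost its call with the offset. *Upk1b*, *Upk3b* and *Krt19* fell by 0.98, 0.76 and 0.61 on the log2 scale, and of these *Upk1b* was called with the offset. *Msln*, mesothelin, was the member that rose, from a mean of 11.1 CPM (SD 5.88, n = 3) to 22.8 CPM (SD 2.06, n = 3).

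The 22 epicardial and mesothelial genes found summed to 1205 to 1593 CPM at E11.5 and to 819 to 1087 CPM at E12.5, without the TMM adjustment. Several of these genes are shared with other epithelia, and E11.5 library 1, which held the *Cdh1* and *Gabrp* reads, was the highest of its stage for *Krt8* but not for *Aldh1a1*, *Krt18*, *Krt7*, *Wt1* or *Tcf21*. Without that library 11 of the 21 tested genes fell. Without E12.5 library 1 or 2 the number was 2, without E11.5 library 3 it was 4, and with sex as a covariate it was 0 at a median of -0.43.

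**Figure D2:**
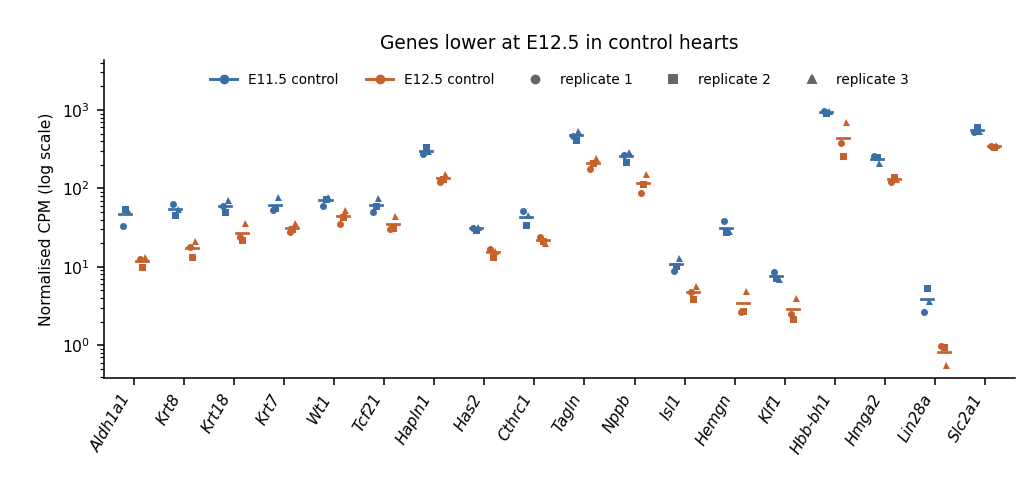
Levels in CPM (log axis) of genes that fell, with 1 point per library and a bar at the mean of the 3 libraries of a stage. For *Aldh1a1*, *Krt8* and *Hemgn* all 3 E12.5 points lie below all 3 E11.5 points.

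A few cushion genes fell, among them 2 of the hyaluronan matrix. Of 28 cushion mesenchyme and valve genes, 4 fell and 1 rose, with a median of -0.15 (6 fell and 1 rose with the offset, median -0.20). *Hapln1*, which links hyaluronan to proteoglycans, fell from 276, 335 and 296 CPM to 122, 132 and 153 CPM (log2 -1.16, SE 0.12, edgeR adjusted p = 0.00198). *Has2*, the hyaluronan synthase required for cushion formation, fell from 31.2, 29.7 and 32.4 CPM to 17.02, 13.3 and 16.2 CPM, with little spread within either stage. *Cthrc1* and *Col9a1* fell by 0.98 and 0.87 on the log2 scale, to 20.4 to 24.2 CPM and 43.1 to 46.5 CPM. *Osr1*, a zinc finger factor of the posterior second heart field and septal mesenchyme, rose from 1.90, 1.22 and 1.27 CPM to 3.43, 3.72 and 5.51 CPM. Of the 4 falls, 2 were called without E12.5 library 1 and 2 without E12.5 library 2, and none with sex as a covariate.

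A few fibrous matrix genes rose. Of 36 collagens and fibrous matrix genes, 4 rose and 1 fell, with a median of 0.24 (0.12 with the offset, 4 rises and 3 falls). *Col14a1*, a fibril-associated collagen, rose from 19.1, 17.8 and 23.8 CPM to 59.0, 59.9 and 39.7 CPM (log2 1.39, SE 0.17, edgeR adjusted p = 0.0049). *Col15a1*, of basement membrane zones, rose from 5.50, 5.15 and 7.74 CPM to 20.2, 23.8 and 14.1 CPM, and *Eln*, elastin, from 152, 192 and 206 CPM to 293, 349.8 and 329 CPM. E12.5 library 3 was the lowest of its stage for both collagens, yet no values overlapped between stages. Outside the list, *Col6a6* rose from 5.44, 7.21 and 8.02 CPM to 19.5, 28.4 and 24.2 CPM and *Thbs2*, a matricellular thrombospondin, from 7.99, 7.60 and 9.28 CPM to 25.6, 36.6 and 29.9 CPM (log2 1.89, SE 0.16, edgeR adjusted p = 0.000988). *Tnc*, tenascin C, fell from 342, 88.2 and 103 CPM to 53.1, 57.9 and 33.6 CPM, and its highest value by far was that of E11.5 library 1, the library with the epithelial reads. Without it the *Tnc* change was -0.99 on the log2 scale (edgeR adjusted p = 0.0425) in place of -1.88. Of 17 smooth muscle and pericyte genes, *Tagln* and *Rgs5* fell and *Abcc9* rose, of which *Tagln* was called with the offset. *Tagln*, transgelin, fell from 465, 415 and 540.2 CPM to 177, 208 and 241 CPM (log2 -1.18, SE 0.14, edgeR adjusted p = 0.00338), but 62.4% of its exonic bases overlap an antisense gene. The 4 matrix rises were 3 without E12.5 library 1, E12.5 library 2 or E11.5 library 3, and none with sex as a covariate.

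Part of the endothelial genes rose. Of 33 endocardial and endothelial genes, 6 rose and none fell, with a median of 0.33 (0.18 with the offset, which kept 3). *Erg*, an endothelial ETS factor, rose from 14.1, 14.2 and 13.6 CPM to 25.1, 26.2 and 25.01 CPM (log2 0.87, SE 0.11, edgeR adjusted p = 0.0049), with nearly equal values within each stage. *Cldn5*, a tight junction claudin of vessels, rose from 2.36, 1.29 and 2.04 CPM to 4.29, 6.25 and 4.95 CPM, and *Aplnr*, the apelin receptor of growing coronary vessels and veins, from 5.44, 3.35 and 7.03 CPM to 10.6, 16.9 and 10.8 CPM. The *Aplnr* call was lost with the offset, as were those of *Cdh5* (VE-cadherin, 0.60) and *Flt4* (0.70). Of 9 lymphatic genes 4 rose, *Lyve1*, *Prox1*, *Flt4* and *Reln*. *Lyve1*, a hyaluronan receptor shared by lymphatic endothelium and macrophages, rose from 4.52, 3.48 and 4.85 CPM to 13.1, 14.6 and 10.2 CPM (log2 1.56, SE 0.21, edgeR adjusted p = 0.00602). The 6 endothelial rises were 1 without E12.5 library 1, 1 without E12.5 library 2, 2 without E11.5 library 1, 2 without E11.5 library 3 and 10 without E11.5 library 2, and none with sex as a covariate.

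The blood in the hearts changed its globins. The promoters of 5 globin genes are shown because the adult genes *Hbb-bs*, *Hbb-bt* and *Hba-a1* were called as rises, with the embryonic genes *Hbb-y* and *Hba-x* of the same clusters beside them. They are the 120 bases before the RefSeq start of each gene (GRCm38.p6), *Hbb-y*, *Hbb-bs* and *Hbb-bt* at chr7:103853208-103853327, chr7:103827929-103828048 and chr7:103813924-103814043 on the minus strand and *Hba-x* and *Hba-a1* at chr11:32276480-32276599 and chr11:32283552-32283671 on the plus strand. Capitals mark the letters CACCC, its reverse complement GGGTG, the letters CCAAT, their reverse complement ATTGG, the letters TATAAA and their reverse complement TTTATA.
Hbb-y: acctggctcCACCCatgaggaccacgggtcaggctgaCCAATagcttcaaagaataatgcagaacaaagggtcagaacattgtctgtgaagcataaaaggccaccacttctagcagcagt
Hbb-bs: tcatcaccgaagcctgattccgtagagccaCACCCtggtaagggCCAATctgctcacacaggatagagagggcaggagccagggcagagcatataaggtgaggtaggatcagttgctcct
Hbb-bt: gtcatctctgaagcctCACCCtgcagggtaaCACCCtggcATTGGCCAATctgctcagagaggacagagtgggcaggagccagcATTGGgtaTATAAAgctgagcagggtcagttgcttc
Hba-x: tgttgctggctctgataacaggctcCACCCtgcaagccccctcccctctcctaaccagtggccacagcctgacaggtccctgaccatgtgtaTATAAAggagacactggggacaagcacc
Hba-a1: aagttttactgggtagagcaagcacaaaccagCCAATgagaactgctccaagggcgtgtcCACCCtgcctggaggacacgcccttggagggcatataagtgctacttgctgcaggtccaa
In these windows every gene held CACCC, first at 111 bases before the start in *Hbb-y*, 90 in *Hbb-bs*, 104 in *Hbb-bt*, 95 in *Hba-x* and 60 in *Hba-a1*. CCAAT lay 83, 76 and 75 bases before the start in *Hbb-y*, *Hbb-bs* and *Hbb-bt*, where in *Hbb-bt* it adjoins ATTGG, and 88 bases before it in *Hba-a1*. TATAAA lay 28 bases before the start in *Hbb-bt* and *Hba-x*. Of the 32851 promoter windows of this length, 31.7% held CACCC, 21.3% CCAAT and 6.34% TATAAA on either strand. The letters are a description of the windows and no factor's binding was measured.

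Adult globins rose and 1 embryonic beta globin fell. *Hbb-bs*, named *Hbb-b1* in the files, is an adult beta globin and rose from 77.7, 41.3 and 81.3 CPM to 277, 237 and 296 CPM. The change was 4.04-fold (log2 2.02, SE 0.22, edgeR adjusted p = 0.00251) and held in all 25 alternative fits. Its neighbour *Hbb-bt*, *Hbb-b2* in the files, rose from 45.5, 60.7 and 60.8 CPM to 123, 111 and 141 CPM (log2 1.17, SE 0.13, edgeR adjusted p = 0.00338). *Hba-a1*, an adult alpha globin, rose from 208, 156 and 222 CPM to 301, 278 and 352 CPM. Its near-identical copy *Hba-a2* had 68.9, 44.1 and 68.7 CPM at E11.5 and 6.60, 6.08 and 140.3 CPM at E12.5, so that the division of reads between the alpha copies is uncertain. *Hbb-bh1*, an embryonic beta globin, fell from 958, 919.6 and 979 CPM to 375, 255 and 700.1 CPM (log2 -1.10, SE 0.28, edgeR adjusted p = 0.0364), and its call was lost with the length offset. The other embryonic beta globin, *Hbb-y*, stood at 2332, 1917 and 2537 CPM at E11.5 and at 2583, 2346 and 3349.6 CPM at E12.5, with overlap, and was called as a rise only with the offset (log2 0.68, edgeR adjusted p = 0.0106). *Hba-x*, the embryonic alpha globin, had 1517, 1105 and 1419.8 CPM at E11.5 and 897, 778 and 1509 CPM at E12.5. For *Hbb-bh1* and *Hba-x* E12.5 library 3, the male heart, lay nearest to E11.5. The *Hba-x* change was not called, at -0.34, and turned to 0.05 with the length offset and to 0.16 with sex as a covariate. As a list, 3 of 4 adult globins were called as rises, *Hba-a1* among them. The count was 2 without E11.5 library 1, E11.5 library 2 or any 1 E12.5 library and 2 with sex as a covariate. The adult globins summed to 301 to 414 CPM at E11.5 and 643 to 938 CPM at E12.5.

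Of 34 genes for the red cell membrane and heme, 6 fell and 1 rose, with a median of -0.18 (6 fell and 1 rose with the offset). *Hemgn*, hemogen, a nuclear protein of red cell precursors (chromosome 4, 46393989 to 46413506, minus strand), had the largest fall of a named gene, from 38.2, 27.8 and 29.0 CPM to 2.64, 2.76 and 4.89 CPM. This 9.22-fold fall (log2 -3.20, SE 0.23, edgeR adjusted p = 0.000683) held in all 25 alternative fits. *Klf1*, the erythroid factor that acts on globin genes, fell from 8.65, 7.28 and 6.96 CPM to 2.51, 2.14 and 3.96 CPM. No E12.5 library reached an E11.5 value for *Hemgn* or *Klf1*. *Epor*, the erythropoietin receptor, *Rhd* and *Cpox* also fell, by 1.02, 1.13 and 0.60 on the log2 scale. *Bpgm*, which makes 2,3-bisphosphoglycerate in red cells, rose from 39.6, 35.0 and 40.1 CPM to 64.2, 52.0 and 74.4 CPM. The 6 falls were 1 without E12.5 library 1, 2 without E12.5 library 2, 2 without E11.5 library 1 and 4 without E11.5 library 3, and with sex as a covariate *Hemgn* alone was called.

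Among 21 macrophage and leukocyte genes, *Lyve1* and *Mrc1* rose and *Pf4* fell, with a list median of 0.45 (0.49 with the offset). *Mrc1*, the mannose receptor of tissue macrophages, had 21.5, 6.25 and 13.2 CPM at E11.5 and 32.4, 28.5 and 34.0 CPM at E12.5 (log2 1.21, SE 0.32, edgeR adjusted p = 0.0392), and lost its call with the offset. The E11.5 values of *Mrc1* spread over 3-fold, the E12.5 values little. *Pf4* and *Ppbp*, chemokines stored in platelets, fell by 1.48 and 1.31 on the log2 scale and were the only 2 of 13 platelet genes called. *Pf4* went from 30.5, 26.0 and 51.5 CPM to 14.8, 8.78 and 15.0 CPM.

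**Figure D3:**
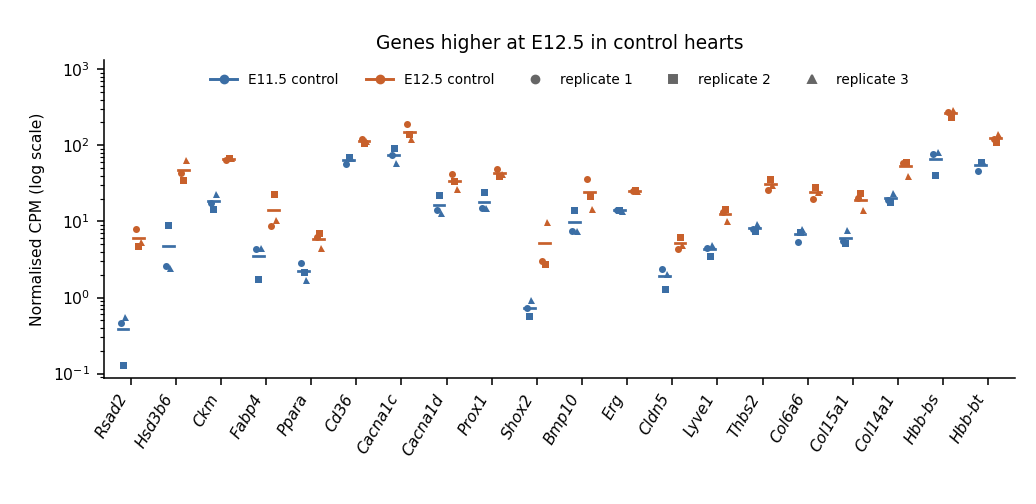
Levels in CPM (log axis) of genes that rose, with 1 point per library and a bar at the mean of the 3 libraries of a stage. *Ckm*, *Hbb-bs* and *Thbs2* show no overlap between the stages.

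A few genes of progenitors and of early embryonic growth fell. Of 13 second heart field and outflow progenitor genes, 3 fell and 1 rose (median -0.25, and -0.40 with the length offset). The falls were *Isl1*, *Nkx2-6* and *Tcf21*, the epicardial factor given above, and the rise was *Osr1*. With the offset *Isl1* was the only fall called and *Osr1* the only rise. *Isl1*, the factor that marks second heart field progenitors, fell from 8.78, 10.3 and 13.2 CPM to 4.81, 3.94 and 5.70 CPM (log2 -1.16, SE 0.22, edgeR adjusted p = 0.019). *Nkx2-6*, a homeobox factor of pharynx and outflow tract, fell from 0.720, 1.93 and 1.13 CPM to 0.198, 0.282 and 0.310 CPM (3, 5 and 5 reads at E12.5). It lost its call with the length offset. Of 16 heterochronic and oncofetal genes, 4 fell and none rose (median -0.25, 3 falls with the offset). *Hmga2*, a chromatin protein repressed by let-7 microRNAs, fell from 257, 249 and 209.6 CPM to 121, 142 and 132 CPM (log2 -0.86, SE 0.11, edgeR adjusted p = 0.0049). *Lin28a*, which blocks let-7 processing, fell from 2.69, 5.41 and 3.66 CPM to 0.989, 0.957 and 0.557 CPM (log2 -2.22, SE 0.37, edgeR adjusted p = 0.0128). Its paralogue *Lin28b* stood at 12.9, 12.0 and 14.4 CPM at E11.5 and at 11.1, 10.8 and 10.8 CPM at E12.5, without overlap, but was not called (log2 -0.27, edgeR adjusted p = 0.212). *Sall4*, a factor of pluripotent and early embryonic cells, fell by 0.82 and *E2f5* by 0.59 on the log2 scale. The 4 falls were 1 without either E12.5 library 1 or 2, 2 without either E11.5 library 1 or 3, and none with sex as a covariate.

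A few secreted inhibitors and ligands of several pathways were called while most of each pathway was not. Over all genes tested 2.85% rose and 2.43% fell. Of 31 genes on the Wnt list 4 fell and none rose, namely *Dkk1*, *Dkk2*, *Rspo3* and *Tcf21*. *Tcf21* is the epicardial factor given above and not a secreted signal. *Dkk1*, a secreted Wnt inhibitor, fell from 5.89, 2.51 and 3.45 CPM to 0.594, 0.732 and 0.929 CPM (log2 -2.38, SE 0.39, edgeR adjusted p = 0.0125). *Dkk2* fell from 26.7, 6.70 and 6.12 CPM to 3.10, 2.65 and 4.09 CPM, with E11.5 library 1 about 4 times the other E11.5 libraries. The *Dkk2* call was lost with the length offset and also without that library (-0.97 in place of -2.01 on the log2 scale, edgeR adjusted p = 0.0664). *Rspo3*, a Wnt amplifier, fell from 39.4, 38.5 and 40.2 CPM to 22.9, 20.9 and 25.6 CPM (log2 -0.77, SE 0.11, edgeR adjusted p = 0.00795). Of 29 BMP and TGF-beta genes, 4 rose and 2 fell. The ligand *Bmp4* fell from 56.7, 56.5 and 50.9 CPM to 30.1, 34.5 and 38.7 CPM, and *Id1*, a target of BMP signals, from 59.8, 51.7 and 63.4 CPM to 31.4, 35.6 and 36.5 CPM, a call lost with the offset. *Ltbp3*, which binds latent TGF-beta in the matrix, rose from 45.8, 42.2 and 37.1 CPM to 94.6, 95.8 and 71.1 CPM (log2 1.06, SE 0.13, edgeR adjusted p = 0.0049), and *Inhba* (1.38), *Bmp10* (1.31) and the endothelial receptor *Acvrl1* (0.89) rose as well, the last 2 without a call under the offset. Among 14 retinoic acid genes *Aldh1a1* and *Crabp1* fell. *Pdgfb* alone rose of 31 FGF, PDGF, IGF and VEGF genes, near the share of rises over all genes tested. The *Crabp1* and *Pdgfb* calls were lost with the offset, and none of 19 Notch genes was called at a median of 0.24.

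The 10 largest rises and falls among clearly expressed genes included several enzymes outside these lists. *Hsd3b6*, a hydroxysteroid dehydrogenase (chromosome 3, 98805504 to 98814443, minus strand), rose from 2.62, 9.08 and 2.46 CPM to 43.1, 35.2 and 63.4 CPM, 9.91-fold (log2 3.31, SE 0.41, edgeR adjusted p = 0.0049). E11.5 library 2 held over 3 times the *Hsd3b6* level of the others of its stage, and without it the change was 4.20 on the log2 scale. *Fam46c* rose from 5.63, 4.51 and 5.84 CPM to 26.6, 19.4 and 33.7 CPM (log2 2.32, SE 0.21, edgeR adjusted p = 0.00128). *Scube2* rose from 7.14, 6.57 and 4.29 CPM to 26.6, 18.5 and 15.1 CPM, and *Nmrk2*, a kinase that makes a precursor of NAD, from 1.57, 3.09 and 1.62 CPM to 7.45, 6.76 and 6.69 CPM. *Adh1*, an alcohol dehydrogenase, rose from 1.05, 2.06 and 1.69 CPM to 3.23, 3.32 and 9.29 CPM, highest in E12.5 library 3, without which it was not called (1.03 in place of 1.72 on the log2 scale, edgeR adjusted p = 0.0936). *Rsad2*, an interferon-induced antiviral enzyme, is not among these genes, since its mean RPKM of 0.861 lay under the required 2. It rose from 0.458, 0.129 and 0.563 CPM (7, 2 and 8 reads) to 8.05, 4.73 and 5.45 CPM (log2 3.97, SE 0.43, edgeR adjusted p = 0.00251) and was the only 1 of 16 interferon-stimulated genes called. *Art1* (36.5% of its exonic bases overlap *Chrna10*), *Car4*, *Plac8* and *Hsd11b2* were among the falls, by 1.67, 1.73, 1.86 and 1.64 on the log2 scale. *Plac8* went from 6.68, 5.22 and 11.0 CPM to 0.923, 1.52 and 3.84 CPM, and neither it nor *Hsd11b2* was called with the length offset. Without E12.5 library 3 the *Plac8* change was -2.62 on the log2 scale. Of the 107 named genes that were called, *Hbb-bs*, *Hemgn*, *Ckm*, *Hsd3b6*, *Fam46c*, *Thbs2* and *Rsad2* were the 7 that stayed past the thresholds in every alternative fit in which they were tested.

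**Figure D4:**
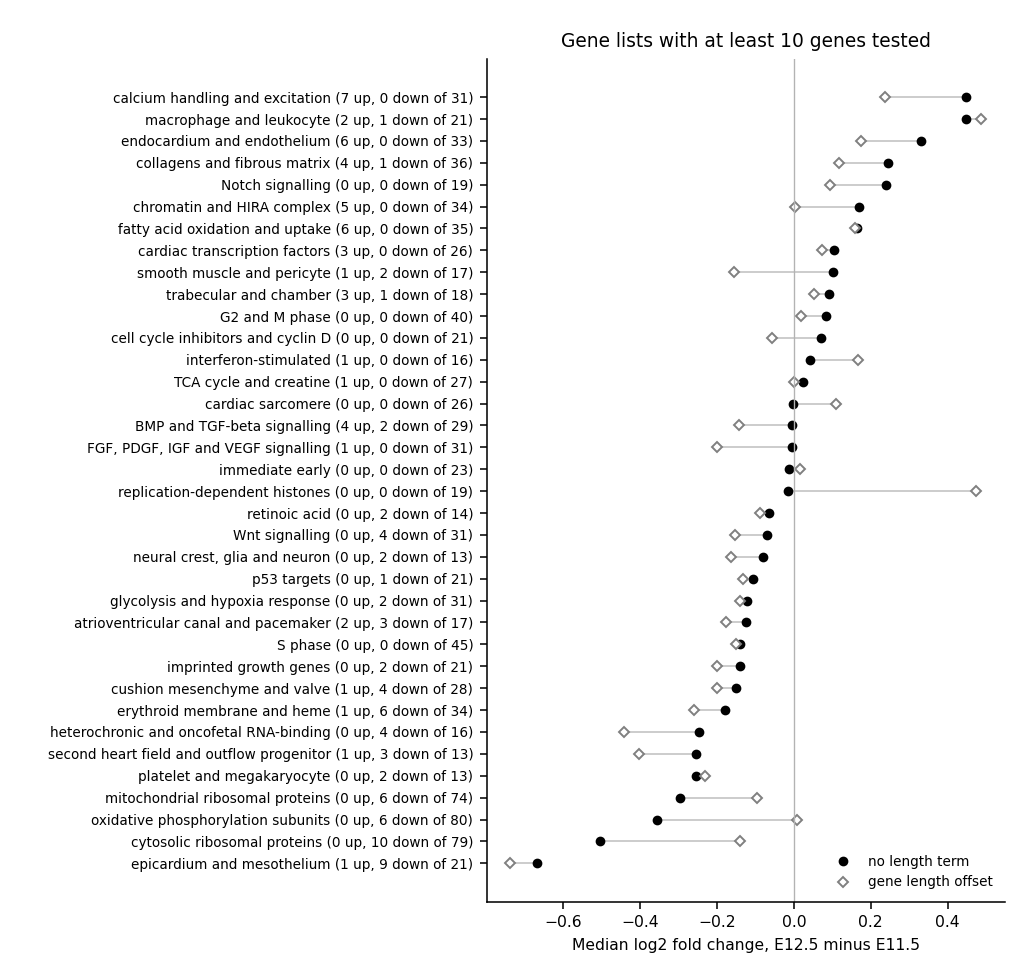
Median log2 fold change of the tested members of each gene list without the length offset (filled points) and with it (open points). Epicardial genes lie at -0.67 and -0.74, whereas cytosolic ribosomal protein genes move from -0.51 to -0.14.

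Ribosomal and respiratory chain genes fell less, or not, once gene length entered the fit. Of 79 cytosolic ribosomal protein genes 10 fell and none rose, with a median of -0.51. In 75 the E12.5 libraries all lay below the E11.5 libraries, against 18.6% of all genes tested. The list had a median gene length of 725 bases, within the shortest of the 10 length groups, so its members share the low end of the length trend. With the length offset 3 fell and the median was -0.14. *Rps20* stood at 944, 781 and 1166 CPM at E11.5 and at 567, 580.4 and 697 CPM at E12.5, a log2 change of -0.65 (SE 0.15, edgeR adjusted p = 0.0296) that was -0.18 with the offset. *Rpl21* kept its call, at -0.65 and -0.59. The count also followed single libraries, with 49 falls without E11.5 library 2, 38 without E12.5 library 3 and none without any 1 of the others. Ribosomal protein genes have many processed pseudogenes, and reads could be divided among copies. Of 80 oxidative phosphorylation subunits 6 fell at a median of -0.35, and with the offset none was called at a median of 0.01. Mitochondrial ribosomal proteins went from 6 falls of 74 and a median of -0.30 to 1 fall and -0.10. At the other end, 5 of 34 chromatin and HIRA complex genes rose, *Dot1l*, *Ubn2*, *Crebbp*, *Mll2* and *Tet2*, of which *Dot1l* alone was called with the offset. *Ubn2*, a HIRA partner with a transcript of 14669 bases in the files, rose from 45.7, 58.0 and 45.2 CPM to 103, 76.5 and 73.1 CPM, 0.76 on the log2 scale and 0.30 with the offset. *Hira* itself stood at 79.6, 85.9 and 68.7 CPM at E11.5 and at 78.0, 86.3 and 61.2 CPM at E12.5 (edgeR adjusted p = 0.813), with both stages overlapping. It shares 44.7% of its exonic bases with *Gm28539* on the same strand, and its counts are uncertain to that extent.

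Growth and stress lists held few calls. None of 45 S phase genes, 40 genes of G2 and M phase, 21 cyclin D and inhibitor genes or 23 immediate early genes was called, at medians of -0.14, 0.08 and 0.07 for the first 3. With the length offset *Tyms* of the S phase list alone was called, as a fall (log2 -0.60, edgeR adjusted p = 0.0395). Of the S phase genes 17 were lower at E12.5 without overlap and 1 higher, against 18.6% and 18.9% of all genes tested. *Pcna*, a replication clamp, had 304, 345 and 415 CPM at E11.5 and 278, 258 and 279.7 CPM at E12.5, without overlap, and an edgeR adjusted p of 0.0594. *Igf2*, the imprinted growth factor, stood at 3132 to 3413 CPM in all 6 libraries, but 62.8% of its exonic bases overlap *Gm49394* on the same strand. Of 21 imprinted genes *Nnat* and *Phlda2* fell, *Nnat* also with the length offset. *Nnat*, neuronatin, went from 92.6, 91.5 and 99.9 CPM to 50.8, 39.8 and 61.0 CPM (log2 -0.91, SE 0.14, edgeR adjusted p = 0.0108).

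The same stage comparison in mutant hearts gave fewer calls. There 68 of 12238 genes (0.556%) were called, and 32 genes were called in both genotypes, 4.95% of the control calls and 47.1% of the mutant calls. Of the 630 control calls tested in the mutants, 593 (94.1%) had the same sign, against 74.6% of the 12048 genes tested in both, and no library is shared by the 2 comparisons. The mutant stage change also followed gene length, with a Spearman rho of 0.353 over genes. Control rises were longer genes than control falls, and how far length made the signs alike was not tested. The control rises had a median of 0.80 in controls and 0.43 in mutants, and the control falls -0.72 and -0.33. A smaller value in mutants was in part fixed by the choice of genes, which were called on the control values. The test of the difference itself called none of 12270 genes in edgeR, where 551 had an unadjusted p under 0.05. DESeq2 called 43, and edgeR 10 without E11.5 mutant library 3, whose slope with gene length was -0.222 against 0.066 and 0.042 in the other E11.5 mutants.

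Some named genes were called in both genotypes and others in controls alone. *Ckm* rose by 1.87 in controls and 1.89 in mutants, *Shox2* by 2.82 and 3.43, *Thbs2* by 1.89 and 3.14 and *Col14a1* by 1.39 and 1.30, each called in both. *Hemgn* fell by 3.20 and 4.08 and *Hmga2* by 0.86 and 0.75, again called in both. *Hbb-bs* had 2.02 in controls and 0.12 in mutants, *Hsd3b6* 3.31 and 0.54, *Fam46c* 2.32 and 0.25, and *Krt8* -1.63 and -0.47. *Wt1* had -0.67 in controls and 0.01 in mutants, where the epicardial list had 1 rise, 1 fall and a median of 0.01. None of these contrasts passed the edgeR interaction test after adjustment. Of the 34 red cell membrane and heme genes, 12 were called as falls in mutants at a median of -1.13, against 6 and -0.18 in controls. Macrophage genes had 5 rises and a median of 1.11 in mutants against 2 rises and 0.45 in controls. The counts of both lists come from separate fits of the 2 genotypes, and the edgeR interaction test called no gene of either list. Each mutant stage held 1 male and 2 female hearts, whereas the E11.5 controls were all male and the E12.5 controls 1 male and 2 female.

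**Figure D5:**
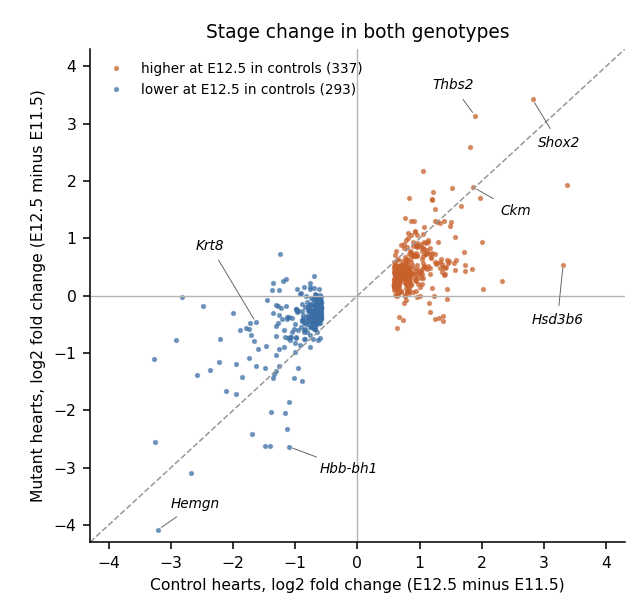
Log2 fold change from E11.5 to E12.5 in control hearts (x axis) against that in mutant hearts (y axis) for the 630 genes called in controls and tested in both, coloured by the control direction, with selected genes labelled and a dashed line of equal change. *Ckm* lies near the line, whereas *Hsd3b6* (3.31 and 0.54) lies well below it.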

How the data were processed

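Whole embryonic hearts were profiled by RNA-seq from frozen tissue, in 12 libraries of 4 groups, of which the 6 control libraries are the subject here. The authors aligned paired-end reads with Bowtie (Bowtie2 in the submitters' processing notes) to mm10 and normalised them with DESeq. The counting program, annotation and use of strand are not given in the sources used here. The authors deposited, per the file headers, the average of the raw counts of each group, handled here as an expected count, since a mean of whole counts need not be whole. The deposited values the authors named RPKM are other values, each a whole count multiplied by a gene length and a library factor. The authors' comparison columns (fold changes, scores and p-values of mutant against control) were not used.

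Whole counts were recovered per library from both kinds of value, for 17827 genes, with a largest distance of 1.62e-05 from whole numbers, while 1597 genes had no count. Another 944 genes, mostly on X and Y, stand only in the value table and were left out of the comparison. The recovery and the tests were tested on simulated data. Genes whose RPKM, computed from counts and lengths, averaged 0.5 or more were tested with edgeR 4.0.16 (quasi-likelihood, TMM scaling, Benjamini-Hochberg over all genes tested) in R 4.3.3, and called where the adjusted p was 0.05 or lower and the change 1.5-fold or larger. The length offset was a loess curve of log2 counts on log2 length in each library. Alternatives used limma 3.58.1 and DESeq2 1.42.0. The 43 gene lists had 1314 entries, of which 1091 were found and passed the filter, and are described by counts and medians only. Named genes were the 10 largest rises and falls among non-overlapping calls with a mean RPKM of at least 2, the 5 largest in CPM each way, up to 4 calls per list by adjusted p (or, with none, its lowest p and its highest level), *Hira* and a fixed set of cardiac, globin and growth genes. Further calls of a list that are named to complete its count were picked with their values known. The comparison and the lists were chosen with earlier results of these data known. Coordinates are on GRCm38, the build of the files, and promoter sequences are from RefSeq (GRCm38.p6), where 6 of 7 globin genes were found. One member of the red cell list is not reported here by name.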

Additional observations from a re-analysis of the deposited data

Results flagged for a closer look

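Genes on the X and Y chromosomes lie outside the comparison, because the deposited genotype comparisons lack them. In a fit that added the 446 of them with recovered counts and enough reads, chosen after seeing the data, 27 were called between the stages, 14 higher and 13 lower at E12.5 (edgeR, same thresholds). That was 6.05% of them, against 5.24% of the 12204 autosomal genes (640 calls) in the same fit, so that the share was near the background. *Apln*, the ligand of the apelin receptor, rose by 1.66 on the log2 scale, from 3.22, 1.43 and 2.64 CPM to 6.04, 10.1 and 6.92 CPM. *Kdm6a*, a histone demethylase that escapes X inactivation, rose by 0.773, from 49.8, 58.0 and 49.7 CPM to 113, 92.4 and 64.0 CPM, and the E12.5 female hearts, libraries 1 and 2, held its highest values. *Alas2*, the first enzyme of heme synthesis in red cells, rose by 0.677, from 98.5, 84.3 and 90.8 CPM to 137, 109.5 and 191 CPM. For X-linked genes stage and sex cannot be told apart in libraries 1 and 2 of E12.5.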

How the results depend on the processing

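All 647 calls kept their sign in every alternative fit that tested them. Where libraries were left out or sex was added, the lack of overlap between the stages in 643 of them largely fixed this in advance. The number of calls did not hold. With a mean RPKM of at least 5 there were 363 (193 higher, 170 lower), with no fold threshold 1402 (690, 712), with glmTreat 15 (8, 7), with all 12 libraries in 1 fit 336 (180, 156), with sex as a covariate 19 (18, 1), in male hearts alone 18 (17, 1), with the length offset 297 (130, 167), and limma with a pseudocount of 1 gave 181 lower. Leaving out 1 library gave 44 to 1407 calls (32 to 743 higher, 12 to 664 lower), the fewest without E12.5 library 1 and the most without E11.5 library 2. Fits chosen after seeing the data gave 26 (22, 4) with the length offset and sex, 386 (180, 206) with the offset and the replicate block, and 287 (103, 184) with the offset and without E11.5 library 1. Higher calls were 53.9% of all calls, 43.8% with the length offset, 41.3% with a GC offset and 44.6% with upper-quartile scaling. The replicate numbers did not pair the samples (correlations of same-numbered libraries -0.126, -0.029 and 0.183), and with the number as a block 770 genes were called (454 higher, 316 lower). Mutant calls were 119 unfiltered, 29 with a mean RPKM of at least 5, 227 in DESeq2, 36 with the replicate block and 1 to 123 with 1 library left out. The genotype difference gave 43 calls in DESeq2, 0 in the other fits, and 0 to 10 with 1 library left out, 10 without E11.5 mutant library 3. The slope difference with gene length lay between 0.140 and 0.216. Uncalled genes that changed sign were *Hba-x* (0.163 with sex, 0.161 in males, 0.048 with the offset, 0.465 with offset and sex, 0.0077 with offset and block, 0.138 with the offset without E11.5 library 1), *Hey2* (-0.016 with sex, -0.018 in males, -0.049 with offset and sex), *Myl2* (0.120, 0.116 and 0.085 with the offset alone, with the block and without E11.5 library 1), *Nppa* (0.155, 0.156 and 0.258 in the same order, 0.088 with offset and sex), *Hist1h1c* (0.035) and *Myh7* (-0.0096) with offset and sex, *Hira* (0.0064 and 0.074 without E11.5 library 2 or E12.5 library 3, -0.166 to 0.074 with each library left out) and *Ube2c* (-0.020 without E11.5 library 3, up to 0.148 without E12.5 library 1). The causes of these differences were not tested.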

Other observations

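E11.5 library 1 held reads of epithelial genes that the other control libraries nearly lacked. *Epcam*, a surface protein of epithelia, stood at 9.04 CPM in it, against 0.186 to 2.32 CPM in the other 5 libraries. The claudins *Cldn4* and *Cldn6* had 5.50 and 4.91 CPM there and at most 0.310 CPM elsewhere, and *Afp*, alpha-fetoprotein, 20.9 CPM there against 0.129 and 0.422 CPM in the other E11.5 libraries and 2.70 to 3.32 CPM at E12.5. Without this library 263 genes were called from E11.5 to E12.5.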
